A study of Mus musculus with 12 samples.

Results

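The genes described here are 53 of the 31641 genes in the count table, chosen by name from a list of mouse chromosome 14 genes that lie beyond about 75 Mb and far from Tinf2. All 53 were in the table and had a count in at least 1 library. By GENCODE M21 on GRCm38 they run from Esd, which starts at 74732297, to Fgf14, which ends at 124677127. Tinf2 itself lies on the same chromosome at 55674689 to 55681820, which is 19.1 Mb before Esd. The list does not hold every gene of the region: 104 other genes of the table lie past the start of Esd, 868 lie before it on chromosome 14, and 27284 lie on the other autosomes.

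RNA-seq was done on 4 embryonic stem cell lines of the mouse, derived from C57BL/6 blastocysts and able to form all tissues of the embryo. Mut-1 and Mut-2 carry the genotype labelled Tin2 S341X, and WT-1 and WT-2 are wild type. All 4 lines grew in serum with LIF on a layer of mouse embryonic fibroblasts. Total RNA came from whole cultures, so each library can hold feeder RNA. Each line gave 3 libraries, which the design text names technical replicates; the genotypes were therefore compared over lines, with n = 2 lines each. Whether the lines of a genotype are separate clones or embryos is not given in the sources used here.

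TIN2, the protein made from Tinf2, is a subunit of shelterin, the complex that covers telomeres, and in humans its mutations cause short-telomere disorders. The 53 genes belong to no single pathway. They share a chromosome, and they include genes that nearly every cell uses (Tpt1, Ipo5, Dis3), genes of the secretory pathway (Uggt2, Dnajc3, Tm9sf2) and genes known from particular lineages, such as Ednrb and Dct in melanocytes.

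Library totals ran from 14766477 to 17891894 counts, and line totals from 47284654 to 52074216. Tinf2, the check of the genotype label, had 19.7 to 30.1 CPM (counts scaled to library size with edgeR's TMM factors) in the 6 mutant libraries, with a median of 26.3, against 57.7 to 69.2 CPM with a median of 62.3 in the 6 wild-type libraries. Of the 34 feeder fibroblast markers in the table, 34 were higher in the mutant lines; their summed level was 10685 to 20522 CPM in mutant libraries and 9535 to 12688 CPM in wild-type libraries. In 3 mutant libraries (Mut-1 replicate 1, Mut-2 replicates 1 and 2) the feeder list took 1.88% to 2.16% of the counts, above the 0.953% to 1.27% of the wild-type libraries. Pluripotency markers summed to 6229 to 7877 CPM in mutant libraries and 6894 to 7910 CPM in wild-type libraries, with 4 of 12 higher in the mutant lines. Markers of blood cells (9 of 10 higher) summed to 300.2 to 411 CPM against 246 to 385 CPM, and those of endoderm (9 of 10 higher) to 258 to 394 CPM against 230.4 to 309 CPM. Melanocyte markers (3 of 7 higher) summed to 55.2 to 72.0 CPM in mutant and 54.4 to 94.3 CPM in wild-type libraries, and neural markers (5 of 9 higher) to 78.0 to 120.0 CPM and 76.0 to 105 CPM. Within these lists Ptprc, Afp, Tyrp1, Slc45a2 and Oca2 were under 0.1 CPM on average, while other markers were well expressed in both genotypes: Laptm5 and Cd68 of the blood list had medians of 247 and 37.0 CPM in mutant and 208 and 32.2 CPM in wild-type libraries. Col4a1 of the endoderm list had medians of 218 CPM in mutant and 164 CPM in wild-type libraries, and Mitf of the melanocyte list 28.3 CPM in mutant and 32.5 CPM in wild-type libraries. In both genotypes Laptm5 thus made up most of the blood sum and Col4a1 most of the endoderm sum. None of the 53 genes was in any of these lists. WT-1 replicates 1 and 2 resembled each other most, with a chi-square of 1.66 per degree of freedom over genes; other library pairs of 1 line had 12 to 42.5.

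The sequence upstream of the annotated start was read for the genes that RefSeq's promoter table (GRCm38.p6) holds, 47 of the 53. Mycbp2, Farp1, Rnf219, Gpc6, Bora and Stk24 had no entry. The RefSeq start is not always that of GENCODE: for some genes, such as Dgkh, Klf12 and Fgf14, the stretch read lies inside the GENCODE gene. The 250 bases before the start held a median of 18 CpG dinucleotides, against 6 over 27025 promoters of all genes. Those promoters were not matched to the listed genes by level or type of gene, so the shares below do not set the listed genes apart from other expressed genes. GGGCGG, the GC box, was found on either strand in 31 of the 47 (66.0%), against 32.9% of all promoters. CCAAT was found in 21 (44.7%, against 34.5%), CCGGAAG, an ETS-type motif, in 5 (10.6%, against 7.05%) and TATAAA in 3 (6.38%, against 13%). None of these motifs contains another, and matches of different motifs may overlap. Members with a mean of at least 2 CPM had a median of 22 CpG (n = 35), and those under 2 CPM had a median of 9 (n = 12). The following 4 promoters belong to Uggt2, Dnajc3 and Ubac2, secretory pathway genes among the 10 with the largest difference between genotypes at a mean of at least 2 CPM, and to Enox1, one of the 2 with the smallest. They lie at chr14:119099435-119099684 (minus strand), chr14:118937682-118937931 (plus), chr14:121878356-121878605 (plus) and chr14:77156513-77156762 (plus), in that order. Each is written 5′ to 3′ on the gene's strand, and capitals mark matches to the 4 motifs on either strand.
Uggt2: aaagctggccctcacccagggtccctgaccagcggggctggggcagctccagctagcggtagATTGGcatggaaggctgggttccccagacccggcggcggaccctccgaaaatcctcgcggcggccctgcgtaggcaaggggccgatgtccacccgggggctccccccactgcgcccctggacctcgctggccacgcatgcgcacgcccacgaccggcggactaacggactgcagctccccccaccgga
Dnajc3: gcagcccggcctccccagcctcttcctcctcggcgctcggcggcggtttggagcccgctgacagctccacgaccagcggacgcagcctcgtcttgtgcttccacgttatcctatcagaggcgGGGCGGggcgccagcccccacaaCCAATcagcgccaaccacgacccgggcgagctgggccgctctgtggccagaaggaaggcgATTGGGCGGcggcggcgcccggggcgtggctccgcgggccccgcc
Ubac2: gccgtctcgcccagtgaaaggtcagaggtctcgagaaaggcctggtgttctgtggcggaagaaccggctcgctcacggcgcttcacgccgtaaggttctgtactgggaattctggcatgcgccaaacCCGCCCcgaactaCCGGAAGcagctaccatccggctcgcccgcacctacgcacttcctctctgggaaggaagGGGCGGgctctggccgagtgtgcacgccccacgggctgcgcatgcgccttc
Enox1: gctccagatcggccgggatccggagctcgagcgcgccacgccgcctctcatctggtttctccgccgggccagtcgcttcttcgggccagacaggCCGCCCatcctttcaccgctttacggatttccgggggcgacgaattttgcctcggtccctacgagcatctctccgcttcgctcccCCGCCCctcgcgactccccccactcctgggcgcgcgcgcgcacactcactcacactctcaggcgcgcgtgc
GGGCGG was matched in Dnajc3, Ubac2 and Enox1, CCAAT in Uggt2 and Dnajc3, and CCGGAAG in Ubac2; the 250 bases held 22, 30, 24 and 33 CpG in Uggt2, Dnajc3, Ubac2 and Enox1.

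The levels of the 53 genes spanned more than 4 orders of magnitude. Tpt1, which makes the abundant growth and survival protein TCTP, averaged 1937 CPM over the 12 libraries, and 5 genes were above 100 CPM (Tpt1, Ipo5, Esd, Tm9sf2 and Dis3). There were 23 genes between 20 and 100 CPM, 10 between 5 and 20, 3 between 2 and 5, 4 between 0.5 and 2, and 8 below 0.5 CPM. Per kilobase of exon, the highest levels were those of Tpt1 (814 CPM per kb), Ipo5 (122), Esd (71.6), Tm9sf2 (66.9) and Clybl (39.1). At the other end stood lineage genes: Gpc5, Dct and Fgf14 were below 0.1 CPM, with 3 counts in the mutant and 3 in the wild-type libraries together for Dct, the melanin enzyme. Epsti1, Pcdh17, Gpc5, Dct and Fgf14 had too few counts to be tested, which left 48 genes in the comparison of line totals. Pcdh9, Scel and Hs6st3 were also too low for the comparison over single libraries, which left 45.

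Setting the 2 mutant lines against the 2 wild-type lines asks whether genes far from Tinf2 on its chromosome differ with the genotype. All 48 tested genes had a log2 fold change above 0, against 49.8% of all 18749 genes tested, and 0 were below it, against 50.2%. With edgeR's quasi-likelihood test on line totals and Benjamini-Hochberg adjustment over all genes, 0 of the 48 passed an adjusted p of 0.05, as did 0 of all genes (0%). At an unadjusted p under 0.05, 34 of the 48 were higher, where 9.17% of all genes were, and 0 were lower, where 3.88% of all genes were. On the same line totals DESeq2 called 11 members higher (1.93% of all genes): Esd, Tpt1, Akap11, Diaph3, Rnf219, Gpc6, Sox21, Dnajc3, Uggt2, Ubac2 and Tm9sf2. Over the 12 libraries with line as a block, limma-voom called 14 (1.17% of all genes), a fit that found a correlation of -0.002 within lines and so treats the libraries of a line nearly as independent. With the feeder share as a covariate in that fit, 6 members were called higher (0.248% of all genes): Tpt1, Diaph3, Uchl3, Uggt2, Ubac2 and Tm9sf2. In edgeR 3 were called higher without the line Mut-1 (0.711% of all genes), 2 without the line Mut-2 (0.393%) and 2 with no filter on low counts (0.196%). In the fits without a mutant line the spread comes from the 2 wild-type lines alone, and the lone mutant line is assumed to vary like them.

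**Figure D1:**
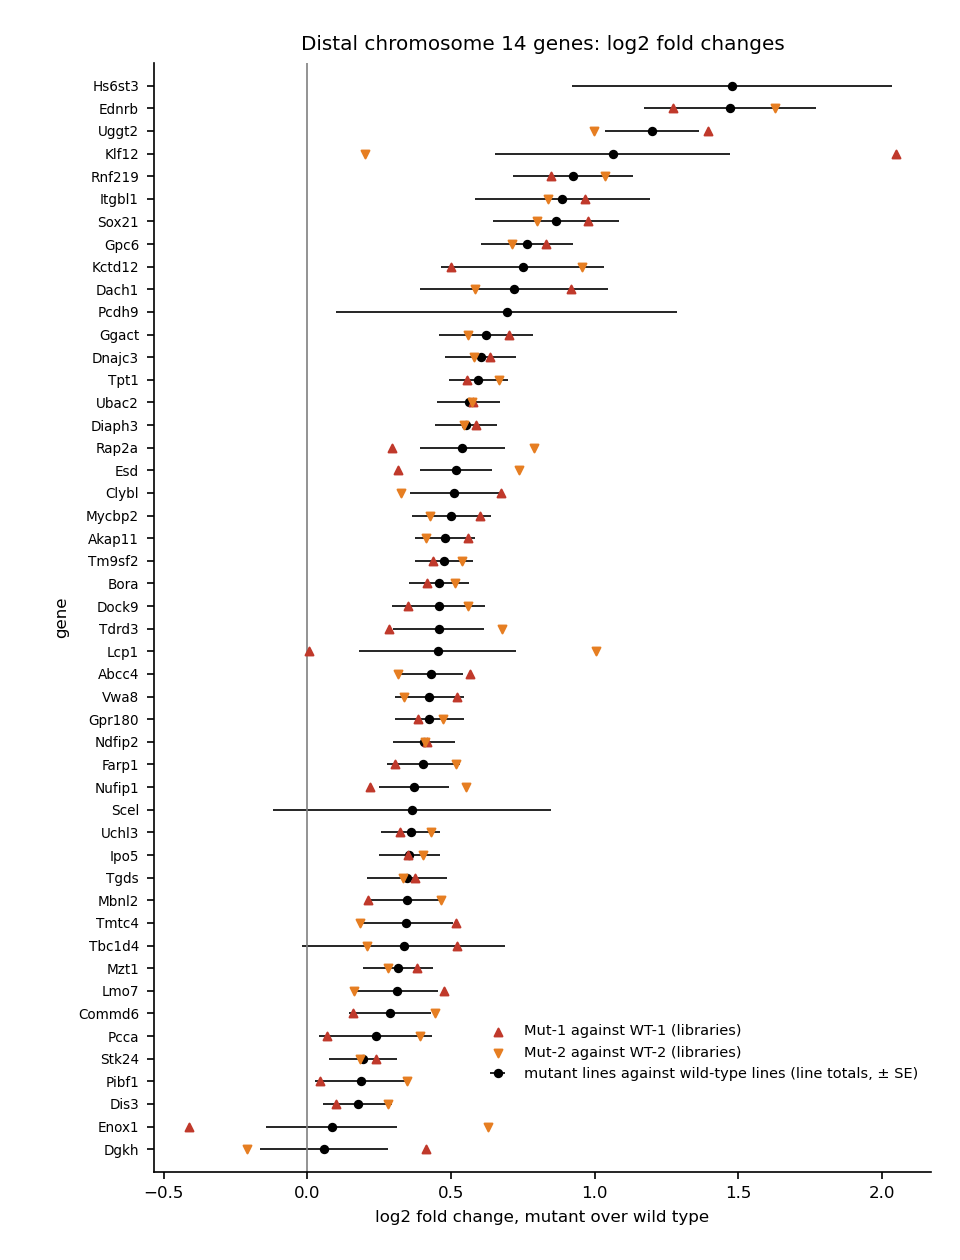
Log2 fold change (x axis, mutant over wild type) of the 48 tested genes (y axis), as black points with standard errors for line totals and as triangles for the pairs Mut-1 against WT-1 and Mut-2 against WT-2 over libraries. All 48 black points lie right of 0, from 0.06 for Dgkh to 1.48 for Hs6st3; Enox1 lies left of 0 in the Mut-1 pair and Dgkh in the Mut-2 pair.

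The difference was modest in size and alike over most of the genes. On log2(CPM + 0.5) of line totals, the 38 genes averaging at least 5 CPM differed by a median of 0.42, a fold of 1.34, with quartiles of 0.34 and 0.51 and a range of 0.07 to 1.16; all 38 were higher in the mutants. The median over all 11412 genes of that level was -0.03, and 43.7% of them were higher. The median was 0.36 in Mut-1 against WT-1 and 0.48 in Mut-2 against WT-2. Between lines of the same genotype it was 0.09 for Mut-2 minus Mut-1 and -0.01 for WT-2 minus WT-1. The 53 genes together took 0.508% to 0.578% of the counts in mutant libraries (median 0.541%), against 0.370% to 0.413% in wild-type libraries (median 0.376%). Without Tpt1 the shares were 0.295% to 0.324% and 0.221% to 0.245%. A count of RNA from whole cultures cannot tell more RNA per cell from more cells of a type that makes it. The feeder share moved with genotype, as given above. Without its 3 highest libraries, which leaves Mut-2 with replicate 3 alone, the median was 0.42 as well. The part of the blood and endoderm markers, given above, was not tested.

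Library by library, the level of the 38 genes relative to the other autosomes separated the genotypes. Their median log2 level relative to the other autosomes was 0.18, 0.23 and 0.22 in Mut-1 and 0.26, 0.28 and 0.24 in Mut-2. It was -0.31, -0.31 and -0.08 in WT-1 and -0.24, -0.24 and -0.14 in WT-2. The groups did not overlap, and replicate 3 was the highest library within each wild-type line. Same-numbered libraries set against each other gave medians of 0.51, 0.50 and 0.29 for replicates 1, 2 and 3, with 37, 38 and 35 of the 38 genes higher in the mutants. Over all genes of at least 5 CPM the medians were -0.02, -0.02 and 0.01, and the share of them higher was not taken. In replicate 3 the median was 0.26 in Mut-1 against WT-1 (30 of 38 higher) and 0.43 in Mut-2 against WT-2 (31 of 38).

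**Figure D2:**
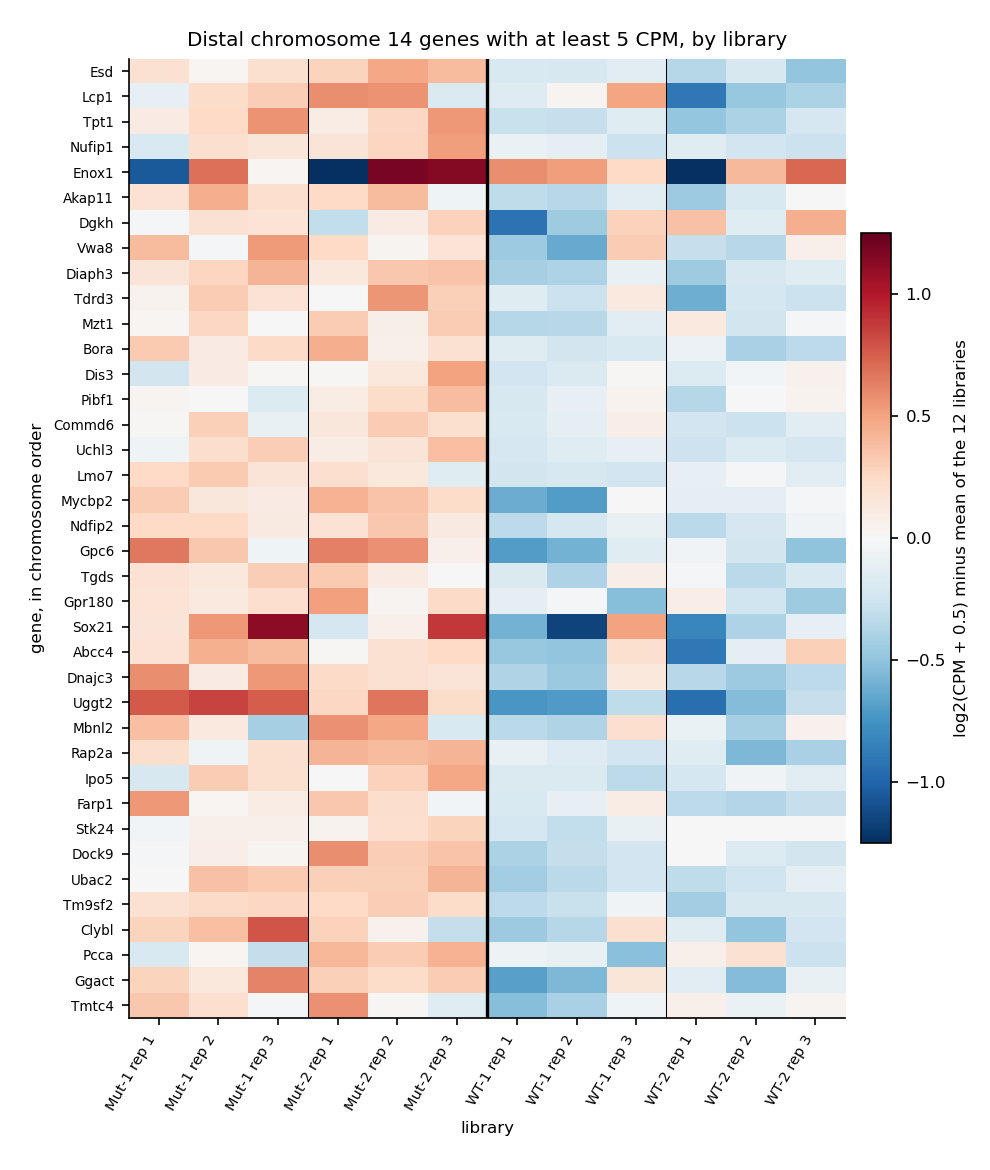
Log2(CPM + 0.5) of the 38 genes with at least 5 CPM, minus each gene's mean over the 12 libraries (colour; values beyond the ends of the scale take its end colours), with genes in chromosome order (y axis) and libraries by line (x axis; mutant left of the thick line). Most genes are red in most of the 6 mutant libraries and blue in most of the 6 wild-type libraries. Enox1, Dgkh, Pcca, Lcp1 and, in replicate 3, Mbnl2 are among those that do not follow this order. WT-1 replicate 3 is paler than the other libraries of WT-1.

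Of the 41 genes averaging 2 CPM or more, 12 were higher in each of the 6 mutant libraries than in any of the 6 wild-type libraries, and 0 were lower, where 1.52% and 0.902% of all genes of that level were. The 12 were Esd, Tpt1, Diaph3, Bora, Uchl3, Mycbp2, Rnf219, Ndfip2, Uggt2, Rap2a, Ubac2 and Tm9sf2. By line totals, both mutant lines were above both wild-type lines for 36 of the 41 (21.8% of all genes), and 0 were the other way round, where 25% of all genes were; the exceptions were Lcp1, Dgkh, Enox1, Tbc1d4 and Pcca. Leaving out the 3 libraries of highest feeder share keeps 3 mutant libraries: Mut-1 replicates 2 and 3 and, for Mut-2, replicate 3 alone. Of the 41 genes 20 then did not overlap, where 3.91% of all genes were higher in each mutant library left.

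The most abundant members were genes that nearly every cell uses, and the log2 fold changes of the 5 above 100 CPM ran from 0.17 for Dis3 to 0.60 for Tpt1. Tpt1 (plus strand, 75845093 to 75848525) measured, in CPM by replicate, 2022, 2237 and 2784 for Mut-1 and 2009, 2258 and 2736 for Mut-2, against 1557, 1539 and 1692 for WT-1 and 1346, 1435 and 1629 for WT-2. All mutant libraries were above all wild-type libraries, and replicate 3 was the highest in each line. The log2 fold change was 0.60 (SE 0.10; adjusted p = 0.161, edgeR). A near-identical copy on chromosome 6, Tpt1-ps3, was counted at 6.91% to 7.44% of Tpt1's counts in mutant and 6.82% to 7.24% in wild-type libraries, so the split of reads between them is uncertain. Ipo5, which carries proteins into the nucleus, had 631 to 1013 CPM in the mutant libraries (median 859), against 577 to 702 CPM in wild type (median 639). Its groups overlapped through Mut-1 replicate 1, and the log2 fold change was 0.35 (SE 0.11).

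Esd, an esterase of the glutathione-dependent formaldehyde pathway, had 240.0 to 330.1 CPM in mutant libraries (median 279.6), against 167 to 216 CPM in wild type (median 205). The groups did not overlap, with a log2 fold change of 0.52 (SE 0.13; adjusted p = 0.220, edgeR). Dis3, the catalytic ribonuclease of the exosome, was one of the abundant genes with little difference: 92.3 to 154 CPM in mutant libraries (median 113) against 91.8 to 113 CPM in wild type (median 101), with only Mut-2 replicate 3 far above the rest. Its log2 fold change was 0.17 (SE 0.12). Nufip1, which helps assemble small nucleolar RNPs, had 84.5 to 139 CPM in mutant libraries (median 110) and 80.0 to 90.8 CPM in wild type (median 84.0); 5 of the 6 mutant libraries lay above every wild-type library.

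Genes of the secretory pathway included the largest difference among genes of at least 2 CPM. Uggt2 (minus strand, 118985039 to 119099430) encodes a relative of the glucosyltransferase that marks misfolded glycoproteins in the endoplasmic reticulum. It measured, in CPM by replicate, 33.0, 34.9 and 33.0 for Mut-1 and 23.2, 31.0 and 22.6 for Mut-2, against 11.4, 11.6 and 15.4 for WT-1 and 9.78, 13.1 and 15.7 for WT-2. The lowest mutant library was well above the highest wild-type library, and Mut-1 was above Mut-2 in every library. Averaged over line totals, it was at 29.5 ± 5.36 CPM in Mut-1 and Mut-2 and at 12.8 ± 0.114 CPM in WT-1 and WT-2 (SD, n = 2), which gave a log2 fold change of 1.20 (SE 0.16; adjusted p = 0.102, edgeR).

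Dnajc3, an endoplasmic reticulum co-chaperone of the unfolded protein response, is the neighbour of Uggt2 (118937976 to 118981697). Its level was 75.9 to 106 CPM in mutant libraries (median 82.4) and 51.3 to 77.4 CPM in wild type (median 55.0). WT-1 replicate 3, the highest wild-type library, lay just above Mut-1 replicate 2, the lowest mutant one, and the log2 fold change was 0.60 (SE 0.12). Ubac2, an endoplasmic reticulum protein that takes part in protein degradation, had 71.2 to 96.1 CPM in mutant libraries (median 89.0), against 52.6 to 65.4 CPM in wild type (median 58.6), with no overlap and a log2 fold change of 0.56 (SE 0.11). Tm9sf2, a membrane protein of the Golgi and endosomes, had 233 to 254 CPM in mutant libraries (median 242) and 152 to 199 CPM in wild type (median 173), again with no overlap (log2 fold change 0.48, SE 0.10). Of the 5 secretory pathway genes on the list, 3 did not overlap between genotypes, where 12 of the 41 and 1.52% of all genes of at least 2 CPM did not in that direction. The median log2 fold change of the 5 was 0.56; the lowest was Tmtc4, an O-mannosyltransferase, at 0.34.

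**Figure D3:**
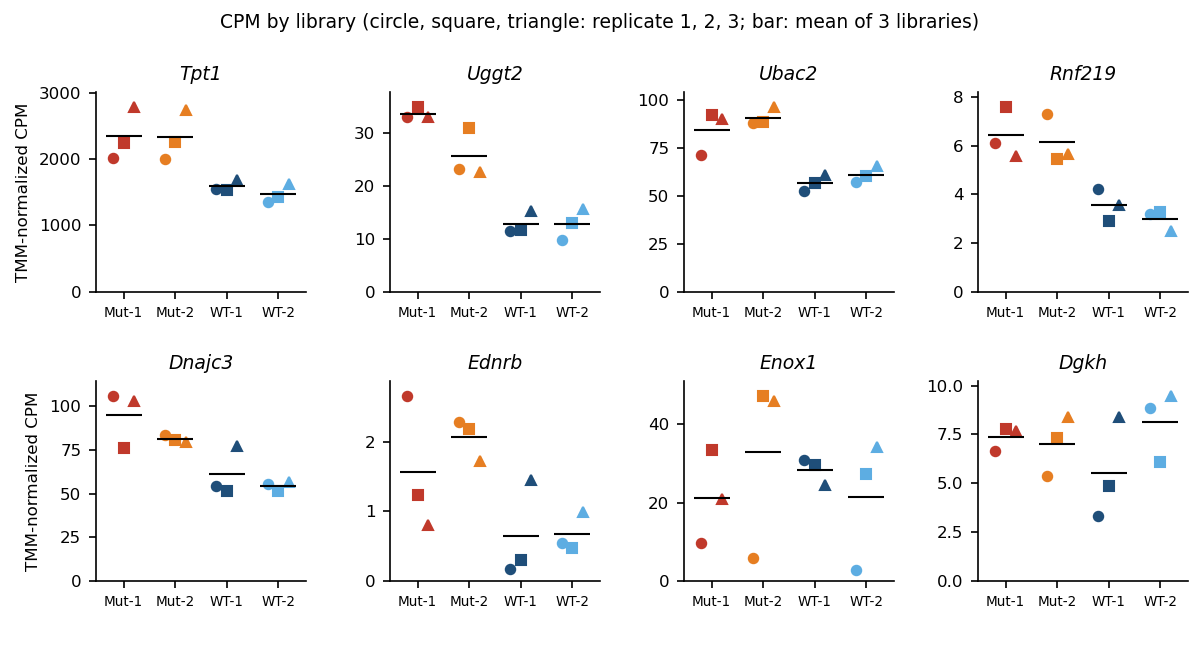
TMM-normalized CPM (y axes, from 0) of 8 genes in the 12 libraries, by line (x axes), with a bar at the mean of the 3 libraries of a line. Tpt1, Uggt2, Ubac2 and Rnf219 do not overlap between genotypes, Dnajc3 and Ednrb overlap in part, and Enox1 and Dgkh overlap widely, with replicate 1 of Enox1 at 9.62, 5.84 and 2.66 CPM in Mut-1, Mut-2 and WT-2.

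Among the 5 genes tied to ubiquitin, 4 had no overlap between genotypes, where 12 of the 41 listed genes and 1.52% of all genes of at least 2 CPM had all mutant libraries above all wild-type libraries; with 5 genes this is a description only. Rnf219, a RING-type ubiquitin ligase, had 5.44 to 7.59 CPM in mutant libraries (median 5.89), against 2.51 to 4.21 CPM in wild type (median 3.23), a log2 fold change of 0.92 (SE 0.21). The deubiquitinase Uchl3 had a log2 fold change of 0.36, the large ligase Mycbp2 one of 0.50 and Ndfip2, an adaptor of Nedd4-type ligases, one of 0.40. Commd6 was at 0.29 with overlapping libraries. Of the 3 centrosome and mitosis genes, Bora, an activator of Aurora A, did not overlap (0.46), while Mzt1, a part of the gamma-tubulin complex, and Pibf1, a centriolar satellite protein, did (0.31 and 0.19). Pibf1 had 13.4 to 19.9 CPM in mutant libraries (median 15.8) and 11.7 to 15.6 CPM in wild type (median 14.6). It overlaps Dis3 by 347 bases on the opposite strand, and as the strand setting of the counting is not given, reads there cannot be assigned to 1 of them.

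Of the 4 cytoskeletal genes, the formin Diaph3 had no overlap between the libraries of the genotypes. It had 50.1 to 61.3 CPM in mutant libraries (median 56.3), against 33.3 to 42.7 CPM in wild type (median 37.3), and a log2 fold change of 0.55 (SE 0.11). The others were close to it in log2 fold change of line totals: Farp1 at 0.40 (SE 0.13), Dock9 at 0.46 (SE 0.16) and Lcp1, an actin bundler of blood cells, at 0.45 (SE 0.27). Over libraries, however, Lcp1 was at 0.006 in Mut-1 against WT-1 and 1.0 in Mut-2 against WT-2. It was at -0.78 in WT-2 against WT-1.

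The signalling genes held the widest range. Dgkh, a diacylglycerol kinase, had 5.38 to 8.38 CPM in mutant libraries (median 7.51) and 3.34 to 9.45 CPM in wild type (median 7.23), so that the mutant range lay inside that of wild type (log2 fold change 0.06, SE 0.22). Stk24, a kinase of the STE20 family, had 72.7 to 90.2 CPM in mutant libraries (median 77.7) and 60.2 to 74.8 CPM in wild type (median 71.8), a log2 fold change of 0.19 (SE 0.12). Kctd12, an auxiliary subunit of GABA-B receptors, had 2.30 to 4.57 CPM in mutant libraries (median 3.32), against 1.58 to 2.64 CPM in wild type (median 2.07), and its log2 fold change was 0.75 (SE 0.28). In all 3 genes the groups overlapped, widely in Dgkh and by 1 mutant library in Stk24 and Kctd12.

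The endothelin receptor gene Ednrb, known for melanocytes and enteric neurons, was low. It measured, in CPM by replicate, 2.66, 1.24 and 0.807 for Mut-1 and 2.29, 2.19 and 1.73 for Mut-2, against 0.176, 0.296 and 1.46 for WT-1 and 0.543, 0.475 and 0.992 for WT-2. The overlap came from replicate 3 of both wild-type lines and from Mut-1 replicates 2 and 3, and the log2 fold change of 1.47 (SE 0.30; adjusted p = 0.177, edgeR) rests on 175 counts in the mutants and 66 in wild type. Among the melanocyte markers 3 of 7 were higher in the mutant lines, as given above.

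The 3 transcription factors were also low to moderate in level. Sox21, a SOX-family repressor, had 4.58 to 12.3 CPM in mutant libraries (median 7.06) and 2.13 to 7.84 CPM in wild type (median 3.69), and replicate 3 was the highest library in each of the 4 lines. Klf12, a Krüppel-like repressor, measured, in CPM by replicate, 2.72, 2.62 and 3.29 for Mut-1 and 1.43, 2.07 and 1.87 for Mut-2, against 0.351, 0.533 and 1.18 for WT-1 and 0.966, 0.951 and 2.78 for WT-2. WT-2 replicate 3 alone lay within the mutant range, and the log2 fold change over libraries was 2.05 in the Mut-1 pair and 0.20 in the Mut-2 pair. Dach1, a regulator of eye and limb development, had 0.621 to 1.87 CPM in mutant libraries (median 1.53) and 0.355 to 1.45 CPM in wild type (median 0.809). The line-total log2 fold changes were 0.87 (SE 0.22), 1.06 (SE 0.41) and 0.72 (SE 0.33) for Sox21, Klf12 and Dach1.

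Of the heparan sulfate genes, the glypican Gpc6 had 13.3 to 22 CPM in mutant libraries (median 19.1), against 8.31 to 13.4 CPM in wild type (median 10.6). Its groups touched only through Mut-1 replicate 3 and WT-2 replicate 1 (log2 fold change 0.76, SE 0.16). Ggact, a cyclotransferase that breaks down gamma-glutamylamines, had 11.1 to 15.8 CPM in mutant libraries (median 12.5) and 6.15 to 11.3 CPM in wild type (median 7.94), a log2 fold change of 0.62 (SE 0.16). It shares 74878 bases with Pcca, the alpha subunit of propionyl-CoA carboxylase, on the opposite strand; Pcca was at 0.24 (SE 0.20). The other mitochondrial genes, Clybl and Vwa8, were at 0.51 and 0.42.

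The remaining tested genes lay in the same range. On the log2 scale the signalling genes Akap11, an anchor of protein kinase A, Gpr180 and Tbc1d4, a Rab GTPase-activating protein, were at 0.48, 0.42 and 0.33, and the exporter Abcc4 was at 0.43. The RNA-binding genes Tdrd3 and Mbnl2, a splicing regulator, were at 0.46 and 0.35, and the sugar-nucleotide enzyme gene Tgds was at 0.35. In these 7 genes the libraries of the genotypes overlapped. Lmo7, of cell junctions, was at 0.31, and Itgbl1 at 0.89 with a mean of 0.999 CPM.

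The genes with the fewest counts gave values but little precision. Over all libraries of a genotype, Hs6st3, a heparan sulfate sulfotransferase, had 35 counts in the mutants and 13 in wild type, the protocadherin Pcdh9 43 and 28, and Scel 27 and 22. Their log2 fold changes were 1.48 (SE 0.56), 0.69 (SE 0.60) and 0.36 (SE 0.48). Among the genes that were not tested, Epsti1, an interferon-induced gene, had 28 counts in the mutants and 9 in wild type, and Pcdh17 had 18 and 13. Gpc5 had 10 and 5, and Fgf14 had 7 and 3, so that no difference could be read at this depth.

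Enox1, a cell-surface oxidase, did not follow the rest. It measured, in CPM by replicate, 9.62, 33.4 and 20.9 for Mut-1 and 5.84, 47.2 and 46.0 for Mut-2, against 30.8, 29.6 and 24.4 for WT-1 and 2.66, 27.3 and 34.1 for WT-2. Replicate 1 was the lowest library in Mut-1, Mut-2 and WT-2 but the highest in WT-1, and the spread within lines was far larger than the difference between genotypes (log2 fold change 0.08, SE 0.23; adjusted p = 0.910, edgeR). Enox1 also holds a processed pseudogene, Gm10132, on its opposite strand, which had 11.8 CPM on average.

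Each mutant line was also set against the wild-type line of its number, over libraries, in 1 edgeR fit of 16533 genes whose p-values measure only the spread between libraries of a line. In Mut-1 against WT-1, 44 of 45 genes had a log2 fold change above 0, the exception being Enox1, against 53.1% of all genes. Uggt2 alone rose at an adjusted p under 0.05 (log2 fold change 1.39, adjusted p = 0.00617), where 0.296% of all genes rose, and 0 fell, where 0.0302% of all genes did. In Mut-2 against WT-2, 44 of 45 were above 0, the exception being Dgkh, against 49.9% of all genes. There 6 rose and 0 fell, where 0.732% of all genes rose and 0.194% fell. The 6 were Esd (0.74, adjusted p = 0.0125), Rap2a (0.79, 0.0191), Uggt2 (1.0, 0.0348), Tm9sf2 (0.54, 0.0428), Ubac2 (0.57, 0.0455) and Dock9 (0.56, 0.0484). Rap2a is a small GTPase of the Ras family.

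In Mut-2 and WT-2 same-numbered libraries deviated together, with correlations of 0.695, 0.390 and 0.114. The correlations of all 3 numbers were also above 0.1 between Mut-1 and WT-2 (0.288 to 0.404), WT-1 and WT-2 (0.194 to 0.621) and Mut-1 and Mut-2 (0.139 to 0.493). They were not between Mut-1 and WT-1 (-0.130 to 0.217), nor between Mut-2 and WT-1 (-0.288 to -0.105). With the replicate number as a block, Mut-2 against WT-2 had 10 higher calls among the members (1.42% of all genes), adding Tpt1, Diaph3, Bora and Rnf219, and Mut-1 against WT-1 had 5 (0.544%). The calls depended on single libraries, and so did the share of all genes called, given in parentheses. Mut-1 against WT-1 had 11 higher calls without WT-1 replicate 3 (1.85%), 2 without Mut-1 replicate 1 (0.29%) and 0 without WT-1 replicate 1 (0.0827%) or 2 (0.0886%). Mut-2 against WT-2 had 0 without Mut-2 replicate 2 (0.0355%) or WT-2 replicate 3 (0.0472%), 1 without WT-2 replicate 1 (0.0888%) or 2 (0.337%) and 3 without Mut-2 replicate 1 (0.559%). It had 2 without Mut-2 replicate 3 (0.324%), Mut-1 replicate 2 (0.289%) or 3 (0.266%), or WT-1 replicate 1 (0.289%) or 2 (0.278%). It had 7 without Mut-1 replicate 1 (1.09%) or WT-1 replicate 3 (1.02%). With WT-1 replicates 1 and 2 counted as 1 library, 0 were called higher in Mut-1 against WT-1 (0.0769% of all genes) and 2 in Mut-2 against WT-2 (0.225%). With no filter the same comparisons had 12 (1.23%) and 13 higher calls (2.28%), and with DESeq2 6 (0.922%) and 15 (2.56%). In Mut-2 against WT-2, RLE normalization gave 3 (0.611%) and a further limit of at least 1 on the log2 fold change gave 0 (0.399%). The difference between the pairs was tested in the same fit and called 0 of the 45 (0.0242% of all genes higher and 0.0484% lower); Enox1 (1.04), Lcp1 (1.0) and Klf12 (-1.85) had large estimates without passing, and with no filter Enox1 passed (0.405% of all genes higher and 0.55% lower). Between lines of 1 genotype, 0 of the 45 were called in WT-2 against WT-1 (0.0181% of all genes higher and 0% lower) or in Mut-2 against Mut-1 (0.0484% higher and 0.212% lower).

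The rest of chromosome 14 was compared next, as the listed genes share it. Over the 36 other genes of at least 5 CPM past the start of Esd, the median log2 difference was 0.38, and 35 of 36 were higher in the mutants. Over 322 genes before Esd it was 0.35, with 312 higher, and over 10517 genes of the other autosomes it was -0.04, with 41.6% higher. The share of genes with no overlap between libraries was 28.9% for the listed genes, 36.1% for the other distal genes, 22% for those before Esd and 0.666% for the other autosomes. The listed genes thus lay close to the rest of their chromosome, and no difference from it was tested.

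**Figure D4:**
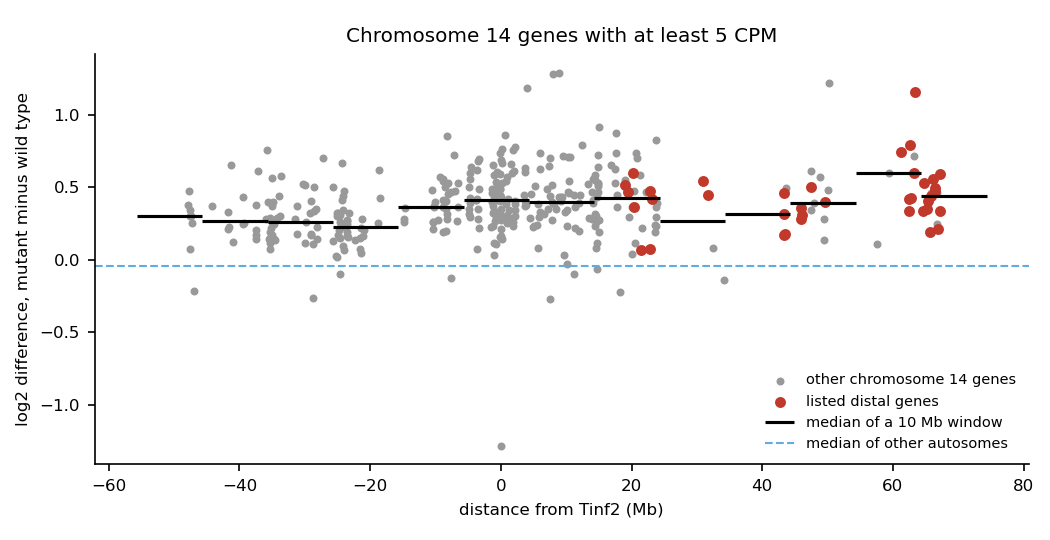
Log2 difference of line totals (y axis, mutant minus wild type) of chromosome 14 genes with at least 5 CPM by distance of their start from Tinf2 (x axis, Mb); red points are the listed genes, grey points the other genes, black bars medians of 10 Mb windows and the dashed line the median of the other autosomes. The window medians lie between 0.22 and 0.60, all above the dashed line at -0.04; the lowest grey point is Tinf2.

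Along the listed stretch the difference did not fall with distance from Tinf2. In windows of 10 Mb from 70 Mb onward the medians of the listed genes were 0.44 (8 genes), 0.50 (2), 0.24 (4), 0.36 (5), 0.60 (7) and 0.42 (12). The window from 110 to 120 Mb, which holds Uggt2, Dnajc3, Sox21 and Gpc6, was the highest. Over the 38 genes the difference had a correlation with start position of r = 0.23 and rho = 0.11, with log2 mean CPM of r = -0.01 and rho = 0.00, and with log2 gene length of r = -0.10 and rho = -0.05. These are descriptions across genes that share libraries. The shorter genes (95602 bases or less) had a median of 0.40 and the longer ones 0.44, and genes below and above the median level had 0.42 and 0.43. The differences in the 2 line pairs, which share no library, had r = 0.22 and rho = 0.15 over the 38 genes.

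**Figure D5:**
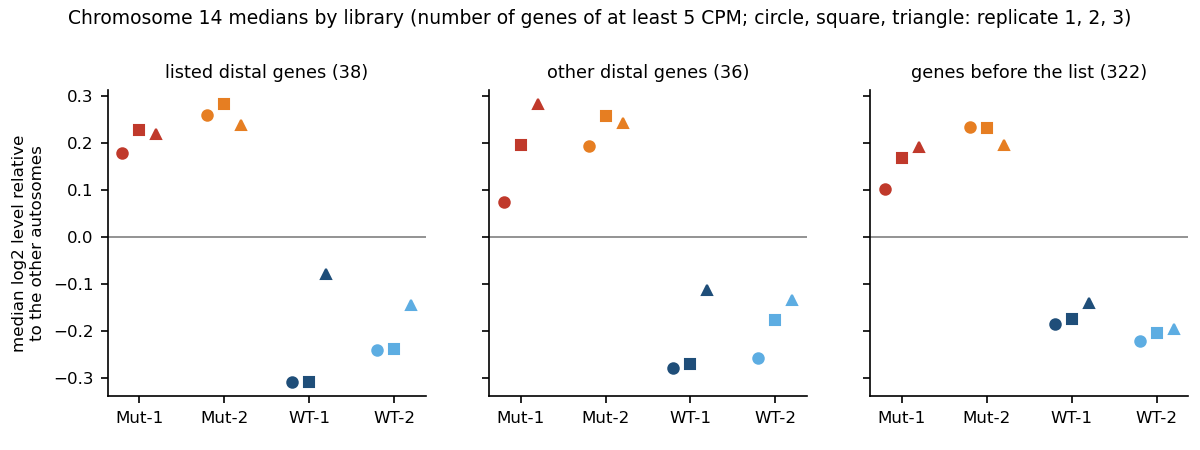
Median log2 level relative to the other autosomes (y axis) in each of the 12 libraries, by line (x axis), for the 38 listed genes, the 36 other distal genes and the 322 chromosome 14 genes before Esd. In all 3 panels the 6 mutant libraries lie above 0 and the 6 wild-type libraries below it.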

How the data were processed

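RNA-seq libraries of 4 mouse embryonic stem cell lines were analysed from whole-number counts per gene that the authors deposited without normalization. Per the submitters' processing notes the build was GRCm38 and the tools were HTSeq 0.6.0, HISAT2 2.1.0, Bowtie2 2.2.3 and bcl2fastq; which step each did, which annotation was used and whether strand was read is not given in the sources used here. Counts of overlapping genes and near-identical copies are therefore uncertain.

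The gene list, roles, marker lists and tests were chosen with earlier results of these data known. The 3 libraries per line were summed, and 2 mutant lines were compared with 2 wild-type lines with edgeR 4.0.16 under R 4.3.3 (quasi-likelihood test, TMM, filterByExpr, Benjamini-Hochberg over all genes, threshold 0.05). SE is the size of the log2 fold change divided by the square root of F. Line pairs were compared over 12 libraries in 1 fit with 4 groups. Alternatives used DESeq2 1.42.0 and limma 3.58.1. On simulated counts with known changes, the check asked only that the median estimated log2 fold change lie close to the one set. False calls were not counted.

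CPM values are TMM-normalized; medians use log2(CPM + 0.5), which understates differences of low genes, at a mean of at least 5 CPM. Values over libraries were given for the 6 most abundant genes and up to 3 genes below 2 CPM. They were also given for the 10 largest and 5 smallest log2 fold changes of at least 2 CPM. Of these genes, Tpt1, Uggt2, Ednrb, Klf12 and Enox1 had values by replicate, and the others ranges and medians. Genes passing the contrast between the line pairs or between lines of 1 genotype were to be included, and 0 passed. Symbols were matched to GENCODE M21 (29520 of 31641 with a position, 53 of 53 listed genes). Same-numbered libraries of 2 lines were said to deviate together where each correlation of their deviations from the line means exceeded 0.1. This held for Mut-2 and WT-2 and for 3 other pairs of lines, but not for Mut-1 and WT-1 (-0.130, 0.217 and 0.104) or Mut-2 and WT-1. The main fit of the line pairs had no term for the replicate number. That number entered as a block only in an alternative fit, and there for all 12 libraries. WT-1 replicates 1 and 2 still differed beyond sampling noise and both stayed in the line total. 0 columns of the table were left out.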

Additional observations from a re-analysis of the deposited data

Results flagged for a closer look

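In 5 of the 44 groups of 6 libraries examined, 1 library lay far from the other 5 for its range. The limit used flags about 1 in 20 groups of 6 independent samples. Libraries of a line are technical replicates and the groups share libraries, so that rate need not hold here. Ggact had 15.8 CPM in Mut-1 replicate 3, against 11.1 to 12.7 CPM in the other mutant libraries. Dnajc3 had 77.4 CPM in WT-1 replicate 3, against 51.3 to 56.4 CPM in the other wild-type libraries. Ubac2 had 71.2 CPM in Mut-1 replicate 1, against 87.7 to 96.1 CPM in the other mutant libraries. Enox1 had 2.66 CPM in WT-2 replicate 1, against 24.4 to 34.1 CPM in the other wild-type libraries. Klf12 had 2.78 CPM in WT-2 replicate 3, against 0.351 to 1.18 CPM in the other wild-type libraries.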

How the results depend on the processing

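The median log2 difference of the members was 0.38 to 0.48 under all alternatives and 0.39 to 0.46 when 1 library was left out. Normalization without chromosome 14 genes gave 0.43. Members called higher on line totals numbered 0, but 2 with no filter, 11 with DESeq2, 14 with limma-voom, 6 with the feeder share as a covariate, 3 without line Mut-1, 2 without line Mut-2 (each with a lone mutant line), 2 with line number as a replicate block (0.72% of all genes), and 0 to 1 when 1 library was left out (Uggt2 without Mut-1 replicate 3, 0.47% of all genes, or Mut-2 replicate 3, 0.0532%). Without 1 library, log2 fold changes above 0 numbered 45 to 49. The share of all genes above 0 was not taken in these fits. Without 1 library, members with no overlap numbered 12 to 18 (18 without WT-1 replicate 3), where 1.41% to 2.52% of all genes had none in that direction (2.52% without WT-1 replicate 3). Without the 3 libraries richest in feeder RNA, which leaves 1 library of Mut-2, such members numbered 20 (3.91% of all genes).

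Calls in Mut-1 against WT-1 (1) became 12 with no filter, 6 with DESeq2, 5 with the replicate block (0.544% of all genes), 0 with WT-1 replicates 1 and 2 as 1 library, and 0 to 11 without 1 library. Calls in Mut-2 against WT-2 (6) became 3 with RLE normalization, 13 with no filter, 15 with DESeq2, 0 when a log2 fold change of 1 or more was also asked for, 10 with the replicate block, 2 with WT-1 replicates 1 and 2 as 1 library, and 0 to 7 without 1 library. The 7 came without Mut-1 replicate 1 (1.09% of all genes) or WT-1 replicate 3 (1.02%). The difference between pairs called 1 member (Enox1) with no filter. The cause of these changes was not tested.

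The log2 fold change of Enox1 became -0.27 without line Mut-2 and -0.12 without line WT-2, and ran from -0.17 to 0.45 without 1 library; that of Dgkh became -0.17 without line WT-1 and ran from -0.054 to 0.22 without 1 library. The all-gene median became 0.0042 with no filter. Low genes such as Ednrb, Klf12 and Dach1 rest on 66 to 221 counts per genotype. With 2 lines a genotype, 3 libraries a line and no stated separate derivation, p-values measure the spread between these lines or libraries only.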
